A study of Homo sapiens with 4 samples.

Results

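The genes IL7R, FLT3, KIT, CXCR4 and JAK2 encode 4 cell surface receptors for cytokines and chemokines and 1 kinase that relays cytokine signals. Their H3K27ac peaks were compared between 2 cell lines of B-cell precursor acute lymphoblastic leukaemia (BCP-ALL). The cell line REH carries the ETV6/RUNX1 fusion and the cell line 697 does not. According to the study, REH has also lost its other, wild type ETV6 allele. Each is a single established line of its own origin, so the lines may differ in further ways. Both were grown in RPMI medium with serum, without treatment. Chromatin was precipitated with an H3K27ac antibody, 1 library was sequenced per cell line, and input DNA of the same line was the control. The members were chosen by name. A peak was assigned to a gene when it overlapped, by at least 1 bp, the gene body with 10 kb added on each side, in the hg19 build. In this way 21 of 44626 REH peaks and 21 of 74504 peaks of 697 were assigned to the 5 windows, which span 454 kb in all.

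H3K27ac is acetylation of lysine on the tail of histone H3 and is found at active promoters and enhancers. IL7R binds interleukin 7, a growth signal of early B cells, and passes it on through JAK kinases to STAT transcription factors. FLT3 and KIT are receptor tyrosine kinases of early blood progenitors, CXCR4 keeps blood progenitors in the bone marrow by sensing the chemokine CXCL12, and JAK2 is bound to several cytokine receptors.

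The libraries were similar in depth, with 65241657 ChIP tags in REH and 68911420 in 697 after removal of duplicates. The peak lists were not alike: 697 had more peaks, and they were shorter, with a median of 871 bp against 1060 bp in REH. Peaks covered 67.94 Mb in REH and 101.5 Mb in 697. Mean pileup, the height of a peak, was hardly related between the lists, with a Spearman correlation of 0.025 over 24932 pairs of peaks that overlapped 1 to 1, against 0.473 for peak length. The −log10 q-values of these pairs were hardly related either, with a correlation of 0.027, and 6.5% of REH peaks and 23.3% of 697 peaks carried a q-value above the cutoff of 0.1 used for calling. A deposited q-value can therefore not be read as the error rate of its own peak, and whether these score columns are intact could not be checked. For this reason the positions and lengths of peaks were compared and their heights were not, and each value that rests on a q-value carries this doubt. With 1 library per cell line there is no replicate error, and no test of a difference between the lines could be made.

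The promoter sequences of the 5 genes are shown because they differ in base composition. They were taken from RefSeq on GRCh38.p14, and all 5 genes were matched. Each sequence holds the 250 bases before a start site, 5′ to 3′ on the strand of the gene, with CG dinucleotides in capitals. They lie at chr5:35856641-35856890 on the plus strand for IL7R, chr13:28100577-28100826 on the minus strand for FLT3 and chr4:54657707-54657956 on the plus strand for KIT. Of 3 listed CXCR4 starts the most upstream is shown, at chr2:136118150-136118399 on the minus strand, and likewise of 4 listed JAK2 starts, at chr9:4984140-4984389 on the plus strand. These coordinates belong to GRCh38.p14 and were not combined with the hg19 peaks.
IL7R: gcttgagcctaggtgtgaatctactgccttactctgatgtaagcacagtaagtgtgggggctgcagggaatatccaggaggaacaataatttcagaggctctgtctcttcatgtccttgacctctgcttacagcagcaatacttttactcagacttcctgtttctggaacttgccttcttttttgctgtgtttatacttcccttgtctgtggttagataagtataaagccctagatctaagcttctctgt
FLT3: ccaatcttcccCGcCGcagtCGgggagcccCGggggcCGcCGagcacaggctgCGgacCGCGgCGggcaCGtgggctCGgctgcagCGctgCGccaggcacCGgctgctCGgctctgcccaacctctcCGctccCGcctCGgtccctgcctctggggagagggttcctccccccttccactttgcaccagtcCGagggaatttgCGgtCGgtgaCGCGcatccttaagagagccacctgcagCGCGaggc
KIT: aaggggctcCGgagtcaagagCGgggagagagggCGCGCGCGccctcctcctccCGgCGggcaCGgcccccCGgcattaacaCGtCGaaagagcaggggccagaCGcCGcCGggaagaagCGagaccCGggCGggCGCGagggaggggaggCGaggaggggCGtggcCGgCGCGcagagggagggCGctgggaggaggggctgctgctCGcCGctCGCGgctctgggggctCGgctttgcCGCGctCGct
CXCR4: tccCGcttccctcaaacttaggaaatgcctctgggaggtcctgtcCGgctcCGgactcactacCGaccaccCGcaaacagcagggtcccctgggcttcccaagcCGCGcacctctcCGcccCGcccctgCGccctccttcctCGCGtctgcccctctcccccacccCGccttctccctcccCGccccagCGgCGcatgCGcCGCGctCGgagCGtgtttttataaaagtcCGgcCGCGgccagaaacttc
JAK2: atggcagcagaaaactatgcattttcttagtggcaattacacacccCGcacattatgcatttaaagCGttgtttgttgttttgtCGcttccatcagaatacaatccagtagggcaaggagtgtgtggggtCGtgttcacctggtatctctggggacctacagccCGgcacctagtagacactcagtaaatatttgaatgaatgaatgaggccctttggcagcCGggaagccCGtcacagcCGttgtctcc

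The IL7R sequence had 0 CG dinucleotides and a GC content of 43.6%, and 6.06% of 35116 promoters of that length had as few. The median over all promoters was 11. FLT3 had 26 and CXCR4 had 24, and 19.6% and 23.7% of promoters had at least as many. KIT had 34, a number that 6.84% of promoters reached, and JAK2 had 8, below the median. The other starts of CXCR4 had 8 and 12 CG dinucleotides, and those of JAK2 had 36, 22 and 10, so the values of these 2 genes depend on the start chosen.

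Of 5 short motifs searched on both strands, IL7R held 3. The RUNX motif TGTGGT began 43 bases before the IL7R start on its strand, and it occurred in 11.0% of all promoters. The ETS motif GGAAGT occurred at 98 and 55 bases before the IL7R start, both times on the opposite strand, and in 19.5% of promoters. The TATA box letters TATAAA began 29 bases before the IL7R start and, on the opposite strand, 60 bases before it. In CXCR4 they began 30 and 32 bases before the start on opposite strands, where the matches overlap each other, and 10.7% of promoters held them. The E-box CAGGTG was found on the opposite strand 17 bases before the FLT3 start and 114 bases before the JAK2 start, and in 17.5% of promoters. The CRE letters TGACGT, which 7.1% of promoters held, were in none of the 5 sequences, and the KIT sequence held none of the 5 motifs. A match describes the letters only, and those above belong to the starts shown. Of the other JAK2 starts, that at chr9:4985086 held the ETS letters 188 bases before it. The JAK2 start at chr9:5041532 held the E-box 163 bases and the ETS letters 102 bases before it, all on the opposite strand. The remaining starts of JAK2 and CXCR4 held none of the motifs.

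In both cell lines the IL7R window was the most widely covered of the 5 windows, and a long peak lay over the 5′ end of the gene. Peaks covered 29412 bp in REH and 17612 bp in 697, which is 66.85% and 40.03% of the 44 kb window at chr5:35846001-35890000. All 5 windows had a peak in REH, and 4 had one in 697. The exception was KIT, with 4 peaks in REH and 0 in 697. Over the 5 windows together, peaks covered 57476 bp in REH and 37691 bp in 697, while the whole 697 list covered more of the genome.

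**Figure D1:**
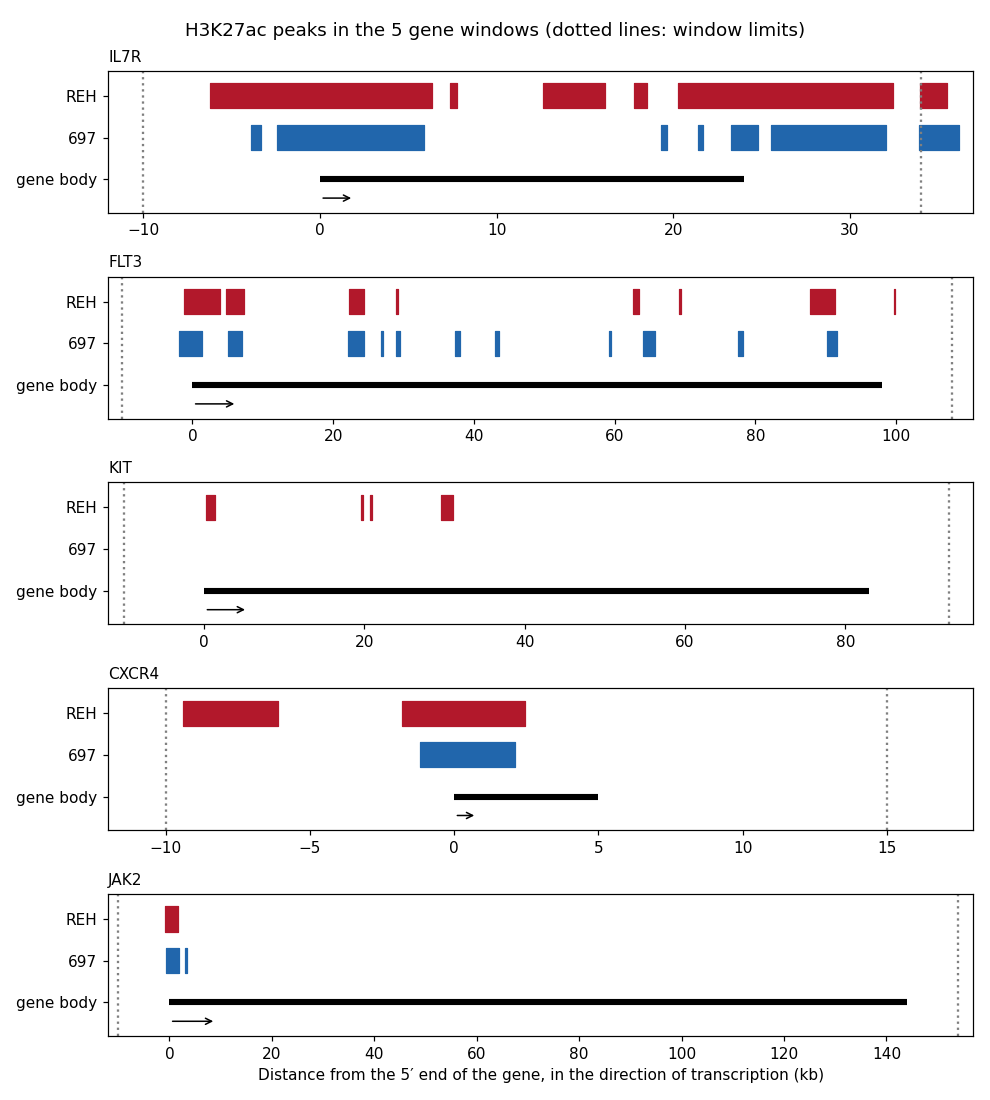
Peaks of REH (red) and 697 (blue) in each gene window, drawn to scale against the distance from the 5′ end of the gene in kb in the direction of transcription, with the gene body as a black bar and the window limits as dotted lines. Peaks lay near the 5′ end of all 5 genes in REH and of 4 genes in 697, and the KIT window was empty in 697.

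**Figure D2:**
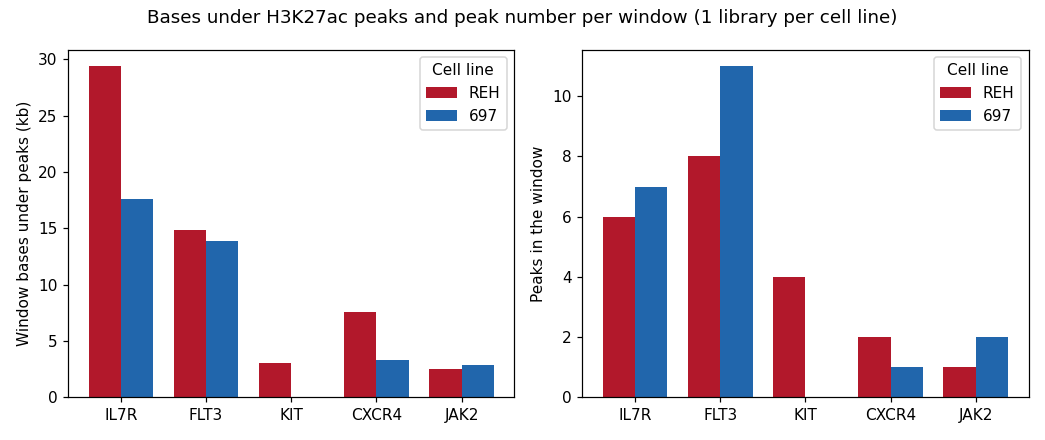
Bases under peaks in kb (left) and number of peaks (right) in each window for REH and 697, 1 library each and therefore without error bars. REH had more covered bases at IL7R, FLT3, KIT and CXCR4, and 697 had more peaks at IL7R, FLT3 and JAK2.

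A window was called different when only 1 line had a peak in it or when the covered bases differed at least 2 times. By this call 2 of the 5 windows differed, those of KIT and CXCR4. The genome was cut into tiles as wide as each window, and tiles with a peak in either line were put through the same call. Of such tiles 64.9% differed at the width of IL7R, 59.1% at that of FLT3, 59.9% at that of KIT, 68.0% at that of CXCR4 and 57.4% at that of JAK2. These shares include tiles with a peak in 1 line only. At the width of CXCR4, 15.7% of tiles had REH peaks only and 30.7% had 697 peaks only. No share was taken over tiles with peaks in both lines, as in the CXCR4 window. By the call as a whole, a difference between the 2 lists was common across the genome, and the count of 2 of 5 does not stand out from it.

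For IL7R, the interleukin 7 receptor chain, REH had 6 peaks and 697 had 7. The REH peak over the 5′ end was 12563 bp long (chr5:35849788-35862350) and reached from 6.2 kb upstream to 6.3 kb downstream of it. Only 149 of 44626 REH peaks, 0.3339%, were at least as long. The 697 peak there was 8320 bp long (chr5:35853580-35861899) and reached from 2.4 kb upstream to 5.9 kb downstream, and 0.7396% of 697 peaks were at least as long. A second 697 peak of 605 bp (chr5:35852079-35852683) lay 3.9 kb to 3.3 kb upstream, also wholly inside the REH peak. Both lines thus had one of their longer peaks over this promoter, and the REH peak reached further upstream than either 697 peak.

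The second broad site lay over the 3′ end of IL7R and beyond it. In REH it was 1 peak of 12173 bp (chr5:35876261-35888433), from 20.3 kb to 32.4 kb after the 5′ end. Below it 697 had 3 peaks of 304, 1499 and 6464 bp, all wholly inside the REH peak. A further pair of peaks, 1527 bp in REH and 2255 bp in 697, reached into the window by 5 bp and 70 bp and adds almost nothing to its cover.

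Between the broad sites REH alone had peaks of 401, 3544 and 726 bp in the IL7R body. The longest of them (chr5:35868599-35872142) lay 12.6 kb to 16.1 kb after the 5′ end, where 697 had none. All 3 had −log10 q-values below that of an FDR of 5%, at 1.161, 1.168 and 0.9287. The only IL7R peak of 697 without a REH peak over it was 350 bp long (chr5:35875287-35875636). Of the IL7R bases under 697 peaks, 97.64% were also under REH peaks, while 58.47% of the REH bases were under 697 peaks. The 697 cover was thus nested in that of REH: 415 bp were covered in 697 only and 12215 bp in REH only. The ratio of REH to 697 cover was 1.67, below the 2 times set for a difference. It was 2.03 in the gene body alone, which passes that threshold, 1.45 among peaks with a deposited FDR of at most 5%, and 0.977 with 50 kb on each side.

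FLT3 and KIT encode related receptor tyrosine kinases, for the FLT3 ligand and for stem cell factor. At FLT3 both lines had peaks over the 5′ end and along the gene body, and the cover was close. REH had 8 peaks over 14854 bp, 12.59% of the 118 kb window at chr13:28567001-28685000, and 697 had 11 peaks over 13877 bp, 11.76%. The ratio was 1.07, and 0.899 with 50 kb on each side. The bases were less alike than the totals: 8066 bp were covered in both lines, 39.03% of those covered in either.

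FLT3 is transcribed from the minus strand. The REH peak over its 5′ end was 5079 bp long (chr13:28671079-28676157) and extended 1.2 kb upstream and 3.9 kb into the gene. The 697 peak was 3323 bp long (chr13:28673644-28676966) and extended 2.0 kb upstream and 1.4 kb into the gene. The 2 peaks overlapped by 2514 bp, and the REH peak lay further into the gene body.

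Inside the FLT3 body 4 further sites were shared. At 4.8 kb to 7.3 kb after the 5′ end REH had a peak of 2572 bp and 697 one of 1956 bp wholly inside it. The closest match was a site at 22.3 kb to 24.4 kb, where a REH peak of 2102 bp (chr13:28650595-28652696) met a 697 peak of 2225 bp (chr13:28650608-28652832), whose starts lay 13 bp and ends 136 bp apart. A short site at 28.9 kb carried a REH peak of 313 bp and a longer 697 peak of 657 bp, and on one side their ends lay 1 bp apart. Near the 3′ end, REH had a peak of 3543 bp (chr13:28583652-28587194) and 697 one of 1432 bp, which overlapped by 1194 bp. These 4 sites were picked because peaks of both lines overlapped there, so their similar positions follow from that choice. The peak lengths at them differed in both directions.

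The remaining FLT3 peaks were found in 1 line only and were mostly short. REH alone had peaks of 187, 294 and 764 bp, the first of them beyond the 3′ end. In 697 alone there were 6 peaks, of 288, 323, 536, 662, 803 and 1672 bp, all in the gene body between 26.8 kb and 78.3 kb after the 5′ end.

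At KIT, the receptor for stem cell factor, REH had 4 peaks over 3092 bp, 3.002% of the 103 kb window at chr4:55514001-55617000, and 697 had 0. The REH peak nearest to the 5′ end was 1059 bp long (chr4:55524228-55525286) and began 0.2 kb after it. Gene ends were known to the nearest kb, so whether this peak spans the start site cannot be told. The other 3 lay in the gene body: peaks of 217 and 279 bp at 19.6 kb to 21.0 kb, and one of 1537 bp (chr4:55553552-55555088) at 29.6 kb to 31.1 kb. None reached into the flanks.

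The KIT peaks were unremarkable in length, with 50.08% of REH peaks at least as long as that near the 5′ end and 33.85% as long as the 1537 bp peak. Their deposited −log10 q-values were 6.54 and 7.107 for the long peaks and 1.296 and 2.172 for the short ones, with the doubt given above. A window with peaks in REH only was found in 14.4% of the 103 kb tiles with a peak in either line, and one in 697 only in 16.0%. REH-only tiles with at least as many covered bases as KIT made up 1.87%. This is a share of all tiles with a peak in either line, not of the REH-only tiles. No such share was taken for 697-only tiles. The lists do not hold tags outside peaks, so a weaker signal at KIT in 697 cannot be seen in them.

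CXCR4, the receptor for CXCL12, is a short gene on the minus strand, and both lines had a peak over its 5′ end. The REH peak was 4266 bp long (chr2:136873548-136877813), from 1.8 kb upstream to 2.5 kb downstream. The 697 peak was 3308 bp long (chr2:136873896-136877203), from 1.2 kb upstream to 2.1 kb downstream, and lay wholly inside the REH peak. At this promoter the lines thus differed by 1.29 times in peak length.

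The call of a difference at CXCR4 came from a second REH peak of 3296 bp (chr2:136882111-136885406), 6.1 kb to 9.4 kb upstream, where 697 had no peak. With this peak included, REH had 7562 bp covered, 30.25% of the 25 kb window at chr2:136861001-136886000, while 697 had 3308 bp, or 13.23%. The REH cover was 2.286 times that of 697. Its deposited −log10 q-value was 1.169. Among peaks with a deposited FDR of at most 5% it was left out, the values were 4266 bp and 3308 bp, and the window no longer differed, a change that rests on the doubtful score column.

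JAK2, the kinase downstream of cytokine receptors, had the least of its window covered among the 4 genes with peaks in both lines. REH had 1 peak of 2556 bp (chr9:4984081-4986636) and 697 had a peak of 2492 bp (chr9:4984270-4986761), both over the 5′ end. The 2 peaks shared 2367 bp, and their starts lay 189 bp and their ends 125 bp apart. A second 697 peak of 402 bp lay 2.9 kb to 3.3 kb after the 5′ end. The cover was 1.559% of the 164 kb window at chr9:4975001-5139000 in REH and 1.765% in 697, and the remaining gene body and flanks held no other peak in either line.

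Of the bases covered in either line at JAK2, 76.78% were covered in both, against 57.66% at IL7R, 43.75% at CXCR4, 39.03% at FLT3 and 0% at KIT. The JAK2 peaks over the 5′ end had deposited −log10 q-values of 1.295 in REH and 0.9569 in 697, the latter above the q-value cutoff of 0.1 of its own list. Neither passed an FDR of 5% on this scale, which left only the 402 bp peak of 697 in this window.

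**Figure D3:**
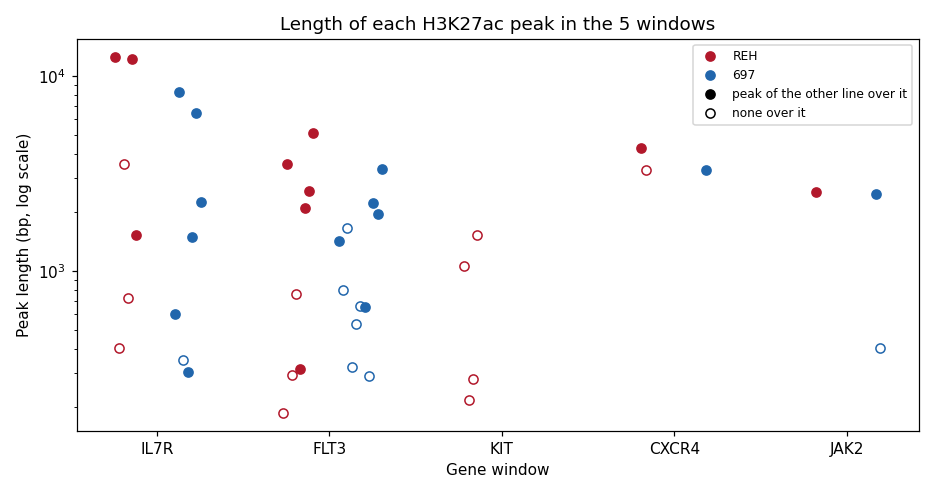
Length in bp, on a log scale, of every peak in the 5 windows for REH (red) and 697 (blue), filled where a peak of the other line overlapped it and open where none did. The longest peaks, 12563 and 12173 bp in REH and 8320 and 6464 bp in 697, were at IL7R and were shared.

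A peak was counted as shared when a peak of the other line overlapped it by at least 1 bp. Of the REH peaks in the 5 windows 10 of 21 were shared, 47.6% with an exact 95% binomial interval of 25.7% to 70.2%, beside 64.1% of the whole REH list. Of the 697 peaks 13 of 21 were shared, 61.9% with an interval of 38.4% to 81.9%, beside 38.9% of the whole 697 list. These intervals cover counting error only, and several peaks of a window may belong to 1 site. The share of the whole list lay inside the interval in both lines, and in 697 close to its lower bound.

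In both lines the long peaks of the windows were shared more often than the short ones. Among peaks of at least 1000 bp, 9 of 13 in REH and 10 of 11 in 697 were shared, beside 79.4% and 60.8% of such peaks in the lists. Among shorter peaks, 1 of 8 in REH and 3 of 10 in 697 were shared, beside 47.4% and 21.5%. The same order was seen in the whole lists. A rule of at least 1 bp of overlap favours long peaks, so part of this order follows from the rule. The 4 long REH peaks without a 697 peak over them were the 3544 bp peak of IL7R, the 1059 and 1537 bp peaks of KIT and the upstream peak of CXCR4. The only such 697 peak was the 1672 bp peak of FLT3.

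The genes also differed in where along the window the peaks lay. At IL7R all 3 sections were covered in both lines, and the section after the 3′ end most, with 84.38% in REH and 73.3% in 697. The IL7R gene body was covered to 61.5% in REH and 30.23% in 697, and the 10 kb before the 5′ end to 62.13% and 30.26%. The excess of REH at IL7R thus lay before and within the gene more than after it.

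At CXCR4 the gene body was covered to 49.06% in REH and 42.1% in 697, and the upstream section to 51.09% and 12.03%. At FLT3 the gene body was covered to 13.79% and 12.15%, and the upstream section to 11.57% and 19.66%, higher in 697. At JAK2 the body was covered to 1.136% and 1.502%. No window other than that of IL7R had more than 1.87% of its section after the 3′ end covered in either line.

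**Figure D4:**
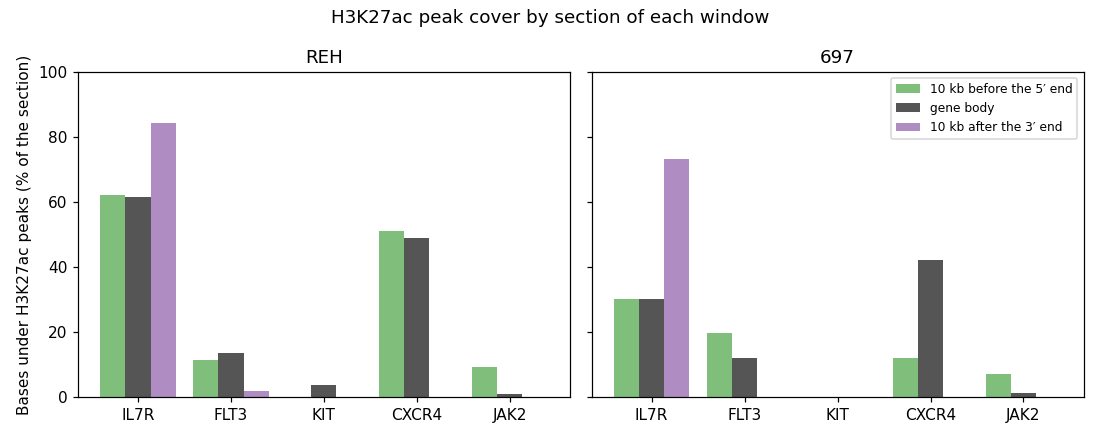
Percent of bases under peaks in the 10 kb before the 5′ end (green), the gene body (grey) and the 10 kb after the 3′ end (purple) of each window, for REH (left) and 697 (right). The section after the 3′ end was covered widely at IL7R, to 84.38% in REH and 73.3% in 697, and hardly elsewhere.

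Within 2 kb on either side of the 5′ end, IL7R was covered to 100% in both lines. In REH CXCR4 had 95.33%, FLT3 78.92% and JAK2 63.9%. In 697 FLT3 had 83.08%, CXCR4 80.08% and JAK2 62.3%. Gene ends were known to the nearest kb only, so the order of these genes is uncertain. KIT was covered to 26.48% in REH. At FLT3 and JAK2 the lines lay close to each other near the 5′ end.

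Set beside the tiles of the same width, the windows ranged from among the most widely covered to KIT in 697, with 0 bp covered. The tiles were not centred on genes and can hold gene-poor stretches. Tiles with a peak in the other line only count as 0 bp, and at the width of IL7R 24.6% had 697 peaks only. A share of tiles is therefore not a rank among gene windows. At IL7R 0.115% of 44 kb tiles with a peak in either line were covered at least as widely in REH and 2.15% in 697, where the tile medians were 1159 bp and 1721 bp. At CXCR4 3.19% of 25 kb tiles reached the REH value and 23.7% the 697 value. At FLT3 the shares of 118 kb tiles were 5.88% and 14.0%. KIT in REH was reached by 37.8% of 103 kb tiles and JAK2 by 53.3% of 164 kb tiles in REH and 57.1% in 697, so both lay in the middle of the range.

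**Figure D5:**
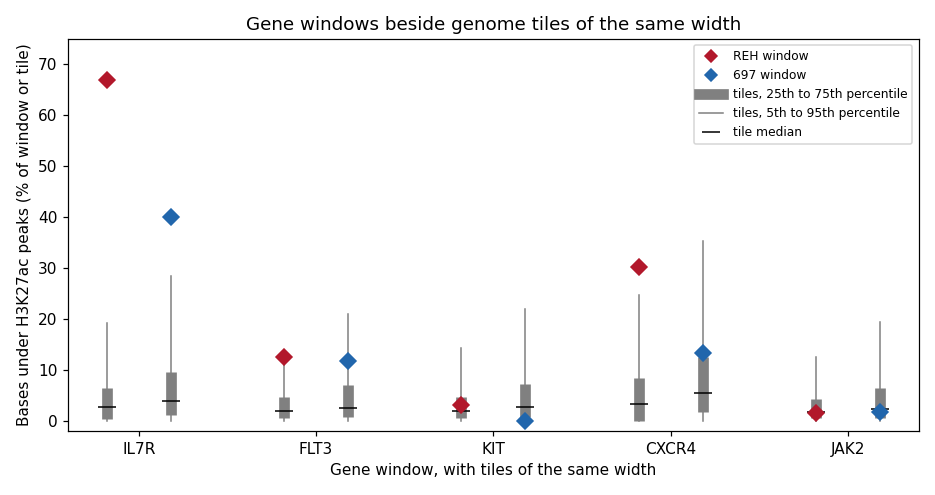
Percent of bases under peaks in each gene window (diamonds, REH red and 697 blue) beside genome tiles of the same width with a peak in either line (line, 5th to 95th percentile; bar, 25th to 75th percentile; tick, median). IL7R lay above the 95th percentile of the tiles in both lines, at 66.85% against 19.16% in REH and 40.03% against 28.46% in 697, and CXCR4 in REH only, at 30.25% against 24.66%.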

How the data were processed

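The authors mapped ChIP-seq reads to hg19 with Bowtie (Bowtie2 per the labels), and the deposited lists, per the file headers, come from MACS 2.1.0.20150731 in broad mode against the input library of the same line, with 1 tag kept per position and q-value cutoffs of 0.05 and 0.1. Per the file headers each peak has a mean pileup signal, a fold enrichment as a linear ratio, and −log10 p-values and −log10 q-values. The methods of the study name an earlier MACS release than the headers, and the headers were followed. The lists hold no tag counts. Input entered only through peak calling, and its reads were not analysed here.

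Peaks were read as deposited, clipped to windows for covered bases, and left whole for lengths. All 5 members are named. The members and lists were chosen with earlier results of these data known. Gene ends are hg19 positions to the nearest kb and strands come from RefSeq, which does not depend on the build. Annotation at hand was GRCh38 and coordinates were not converted, so exons were not assigned, and JAK1, JAK3, TYK2, STAT3, STAT5A, STAT5B, CRLF2, IL2RG, CSF1R, PDGFRA, IL7, FLT3LG, KITLG, CXCL12, ACKR3, SOCS1, CISH, SH2B3 and PTPN2 were not analysed here. The split of shared peaks at 1000 bp and the regions of 250 kb were chosen after seeing the data. Overlap counting was tested on simulated data. Scripts ran in Python 3.11.15 with scipy 1.17.1 for intervals, numpy 2.4.6 and pandas 2.3.3 for tables, and matplotlib 3.10.9 for plots.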

Additional observations from a re-analysis of the deposited data

How the results depend on the processing

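The alternatives were other windows, stricter peak thresholds, merging, a minimum length, equal peak numbers and other overlap rules. The bases under peaks gave 80 alternative values, of which 57 stayed within 1.5 times of the value reported and 23 did not. Some of the 57 could not have moved. Equal peak numbers kept the longest 697 peaks and left the REH list unchanged. Stricter settings cannot add a peak to the KIT window of 697, which had 0. KIT differed between the lines in 9 of 10 alternatives, the exception being −log10(p) of at least 10, where neither line had a peak. CXCR4 differed in 6 of 10, and not with the gene body alone, where the cover was 2453 bp and 2105 bp. IL7R differed in 3 of 10, among them the gene body alone, with a ratio of 2.03. FLT3 differed in 1 of 10, that with −log10(p) of at least 10, which left 6145 bp in REH and 0 bp in 697. With 50 kb on each side the order turned at IL7R, with 47090 bp covered in REH against 48186 bp in 697, and at FLT3, with 24761 bp against 27546 bp. It also turned at JAK2 among peaks of at least 500 bp and with equal peak numbers, with 2556 bp against 2492 bp each time, and at IL7R with −log10(p) of at least 10, with 0 bp against 654 bp. At JAK2 an FDR of at most 5% left 0 bp in REH and 402 bp in 697. The settings on p and q use score columns that were hardly related between the lists.

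When a difference required a peak in 1 line only, 1 gene differed. With 50 kb on each side there were 46 REH peaks and 38 of 697. An FDR of at most 5% left 12 REH peaks, and −log10(p) of at least 10 left 4 in REH and 2 in 697, with a peak over the 5′ end in 0 genes and 0% of peaks shared in either line. Equal peak numbers, by taking the longest 697 peaks, left 12 peaks of 697, 83.3% of them shared. No paired analysis was possible because each cell line has 1 library.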

Other observations

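The regions around the genes, chosen after seeing the data, were described with 250 kb added on each side of each gene body. The stretch of 697 without peaks around KIT was 694 kb long (chr4:55013391-55706990) and held 9 REH peaks. Of 74480 stretches between neighbouring peaks in 697, 632, or 0.849%, were at least as long, and the median was 6428 bp. This share counts stretches and not bases. Long stretches take up more of the genome, so it does not give how often a gene lies in one. The nearest peaks outside the KIT window were 500.6 kb before and 90.0 kb after it in 697, and 312.9 kb and 13.4 kb in REH. PDGFRA, another receptor tyrosine kinase gene, comes before KIT in the gene order, and KDR after it. With 250 kb on each side REH had 11 peaks and 697 had 7, but the 697 peaks covered more, 2.711% against 1.932%.

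The reverse was seen around JAK2, where REH had the single promoter peak in a stretch of 599 kb in which 697 had 8 peaks. With 250 kb on each side there were 4 REH peaks and 13 peaks of 697, which covered 1.141% and 2.334%. Around IL7R the longest 697 peak, 18005 bp (chr5:35893439-35911443), began 3.4 kb beyond the window. With 250 kb on each side, IL7R was covered to 15.38% in REH and 14.66% in 697, FLT3 to 7.514% and 7.831%, and CXCR4 to 15.62% and 14.75%, with 39 REH peaks and 60 peaks of 697. None of these values has a replicate error.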
